A study of Drosophila melanogaster with 3 samples.

Results

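The 73 protein-coding genes of Drosophila melanogaster whose symbol starts with mRpL or mRpS were examined for binding of Spalt-related (salr) in whole prepupae. They were taken by symbol from 13945 protein-coding genes on the major chromosome arms, 47 of them encoding proteins of the large mitochondrial ribosomal subunit (mRpL) and 26 of the small one (mRpS). The ChIP-seq libraries came from a single transgenic line in which salr carries GFP at its C-terminus, in prepupae of unknown age with males and females pooled, and the tagged protein was precipitated with anti-GFP. There were 3 biological replicates of this 1 group, called salr-GFP here, and no second condition. Tissue was whole animals, so cells with and without salr were mixed. All 73 genes had the same span in the RefSeq annotation as in the Ensembl annotation used here.

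Mitochondrial ribosomes translate the few proteins encoded in mitochondrial DNA, which are core subunits of the respiratory chain and ATP synthase. All proteins of these ribosomes are encoded in the nucleus, made in the cytosol and imported, and some have bacterial counterparts whereas others exist only in mitochondria. Many fly genes lie head to head with a neighbour on the other strand, and a single stretch of DNA then serves as the promoter of a divergent pair. salr encodes a zinc-finger transcription factor of the Spalt family, known for patterning the wing and the sense organs and for specifying fibrillar flight muscle.

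Salr bound 16 of the 73 genes, and several of these sites were among the strongest in the genome. A gene was called bound where a summit of the dm6 list that passed the authors' irreproducible discovery rate (IDR) threshold, 6485 peaks in all, lay within 500 bp of any of its annotated start sites. This held for 21.9% of the mitochondrial ribosomal protein genes (Wilson 95% interval 14.0 to 32.7, counting error only) and for 12.5% of all protein-coding genes. Among the 6485 best peaks of each replicate, 15, 20 and 20 of the 73 genes were bound in replicates 1, 2 and 3, or 25.1% ± 3.95 (SD, n = 3). The shares of all genes were 12.3, 15.2 and 15.1%. The share of mitochondrial ribosomal protein genes exceeded that of all genes by 8.29, 12.2 and 12.3 percentage points in the 3 replicates, a gap larger than its spread (11.0 ± 2.30 points). The replicates share the same genes, so this spread covers the libraries and not the choice of genes, and with 1 group no test between conditions exists. In all 3 replicates 12 genes were bound (background 9.65%), and each of the 12 was also bound in the IDR list.

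The strongest of these peaks lay upstream of mRpL41 (FBgn0034001, dm6 chromosome arm 2R 15217024 to 15217617), which encodes a large-subunit protein without a bacterial counterpart. The peak spanned 2R 15217579 to 15217943 and had a signal value of 1241. The signal value is the authors' own score for a peak, has no stated scale, and is used here to order peaks within a list. In replicates 1, 2 and 3 the values were 517, 365 and 363. It ranked 25 of 6485 in the IDR list and 36, 31 and 16 in replicates 1, 2 and 3. The peak upstream of mRpS10 (FBgn0038307, 3R 15229665 to 15230516), a protein of the head of the small subunit, reached 1181 on this score and stood at ranks 43, 29 and 24, with replicate values of 495, 371 and 315. That at mRpS23 (FBgn0260407, 2L 13834250 to 13835072), a small-subunit protein, reached 1129, with ranks 26, 69 and 31 and replicate values of 541, 301 and 299. The order of the 3 genes thus varied between replicates. Each of the 3 was therefore among the best 100 peaks of every replicate, a position held by 4.11% of the mitochondrial ribosomal protein genes against 0.567% of all genes in the pooled list.

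The large-subunit gene mRpL23 (FBgn0035335, 3L 2372844 to 2373704), whose bacterial counterpart lines the exit of the peptide tunnel, followed with a signal value of 881 and ranks of 102, 115 and 137. A further 3 genes had peaks among the 1000 strongest. These were mRpL2 (FBgn0036135, 3L), whose bacterial counterpart lies beside the peptidyl transferase centre, mRpL20 (FBgn0036335, 3L), and mRpS2 (FBgn0031639, 2L). Their signal values were 476, 442 and 422. The ranks of mRpL2 were 435, 1327 and 482, those of mRpL20 were 781, 856 and 863, and those of mRpS2 were 967, 687 and 807. In all, 7 of 73 genes (9.59%) had one of the 1000 strongest peaks, against 3.59% of all genes. No cytoplasmic ribosomal protein gene of 92 had one of these 1000 peaks. Among the best 1000 peaks of replicates 1, 2 and 3 the cytoplasmic genes numbered 0, 1 and 1, and the mitochondrial ones 7, 7 and 9. The shares of all genes there were 3.59, 3.87 and 4.03%.

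The remaining 9 bound genes had peaks in the middle and lower ranks. mRpS6 ranked 1949, 1705 and 870 in the replicates and mRpS7, which encodes a protein that binds the small-subunit rRNA, 2294, 2397 and 2019. mRpL34 ranked 3973, 2107 and 1999. The ranks of mRpS22 were 4059, 2153 and 1967, and those of mRpS31 were 2925, 3540 and 3404. These 5 genes, like the 7 above, were among the best 6485 peaks of every replicate.

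The last 4 were bound in 2 of 3 replicates each. mRpS25 and mRpL17 fell below the 6485 best peaks in replicate 3, where they ranked 10251 and 7461. mRpS24 fell below them in replicate 1 (rank 7106), and mRpL18 had no entry within 500 bp in replicate 2. The weakest called peak, at mRpL18, had a signal value of 146, and the IDR list ended at 116. The median signal value over the 16 genes was 293 (250 over all 1747 bound genes and 168 over the 27 bound cytoplasmic ribosomal protein genes).

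To give the DNA under the summits, sequences are shown for the 6 strongest sites on 2L, 3L, 3R and X that lay between divergent start sites. The site of mRpL41, the strongest of the 16, is not among them. The sequences are from the RefSeq Release 6 genome (dm6), reach 100 bp to each side of the summit but not past a start site, and read 5′ to 3′ on the strand of the ribosomal gene. Capitals mark matches to the searched words on either strand. In these windows they are the TATA box word TATAAA or its reverse complement, and the palindromic AT-rich word AATATT.
mRpS10 (partner Art3), chr3R:15229430-15229630, plus strand: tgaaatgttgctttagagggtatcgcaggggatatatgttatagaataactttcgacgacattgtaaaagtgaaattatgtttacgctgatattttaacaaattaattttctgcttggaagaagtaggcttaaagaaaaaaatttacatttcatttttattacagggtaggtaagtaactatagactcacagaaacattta
mRpS23 (partner CenG1A), chr2L:13835370-13835563, minus strand: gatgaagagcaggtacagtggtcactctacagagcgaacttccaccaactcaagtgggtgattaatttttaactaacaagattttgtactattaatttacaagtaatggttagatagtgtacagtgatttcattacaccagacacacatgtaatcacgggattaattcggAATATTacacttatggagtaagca
mRpL20 (partner Icmt), chr3L:13018049-13018249, minus strand: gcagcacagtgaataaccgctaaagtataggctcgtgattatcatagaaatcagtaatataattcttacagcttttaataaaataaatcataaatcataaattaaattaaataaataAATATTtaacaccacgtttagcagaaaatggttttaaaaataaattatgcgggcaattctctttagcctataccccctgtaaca
mRpS2 (partner Mon1), chr2L:4850481-4850640, minus strand: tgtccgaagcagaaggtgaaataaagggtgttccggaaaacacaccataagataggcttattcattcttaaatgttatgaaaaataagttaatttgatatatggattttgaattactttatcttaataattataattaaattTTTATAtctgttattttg
mRpS6 (partner Cip4), chr3L:4364363-4364549, plus strand: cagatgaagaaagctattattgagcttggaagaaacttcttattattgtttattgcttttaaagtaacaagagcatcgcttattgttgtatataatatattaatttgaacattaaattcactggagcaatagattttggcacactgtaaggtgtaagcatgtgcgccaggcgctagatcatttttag
mRpS7 (partner Cdk1), chr2L:10386375-10386575, plus strand: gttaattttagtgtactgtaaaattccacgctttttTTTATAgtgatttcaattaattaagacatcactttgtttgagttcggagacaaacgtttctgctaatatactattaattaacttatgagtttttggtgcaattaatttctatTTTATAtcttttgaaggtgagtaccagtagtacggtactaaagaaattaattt

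**Figure D1:**
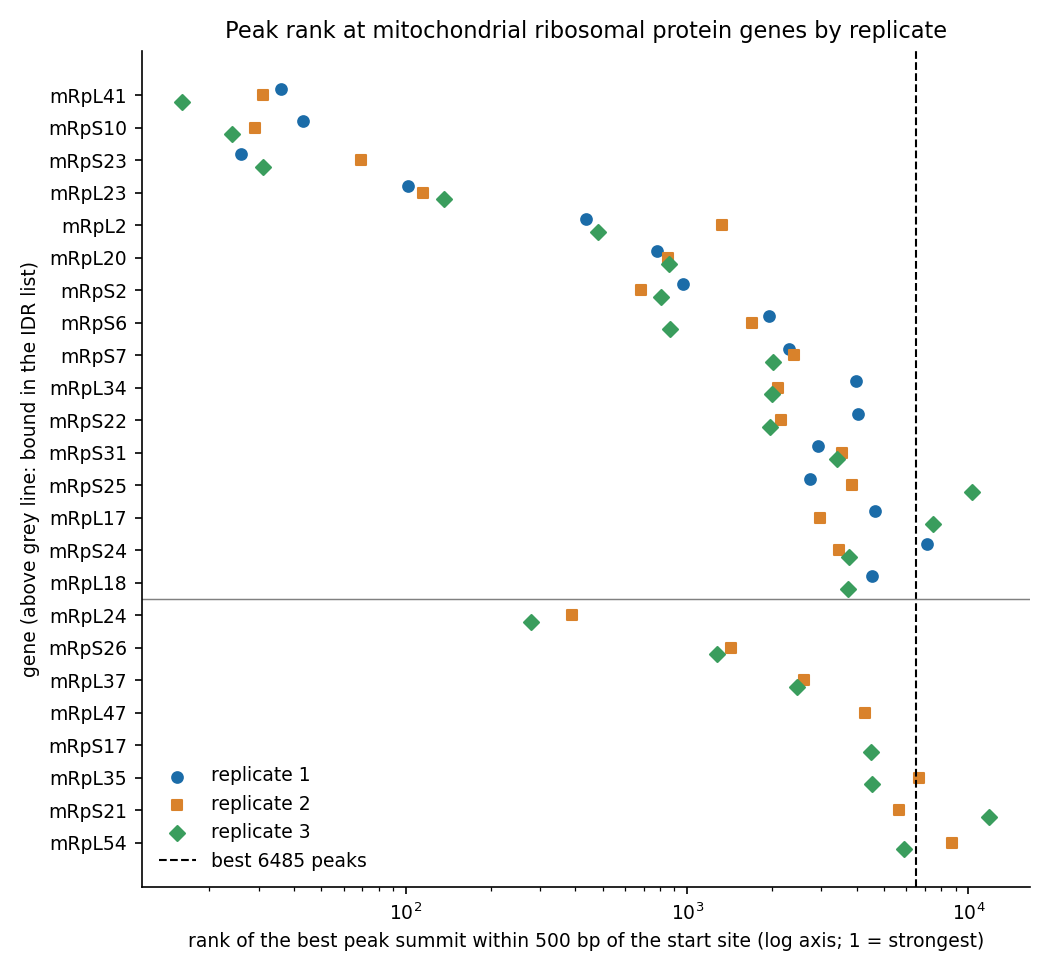
Rank of the best summit within 500 bp of the start site (log axis, 1 is the strongest) in each of 3 replicates, for the 24 genes that were bound in at least 1 replicate. The 16 genes above the grey line were bound in the IDR list, and points to the right of the dashed line lie below the best 6485 peaks of that replicate. mRpL41, mRpS10 and mRpS23 lie among the best 100 in every replicate, and no point of replicate 1 appears below the grey line.

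As a ratio to all genes in the pooled list, the share of these genes was higher among the strongest peaks than when every entry was counted. Within the full pooled list of 30000 entries, which includes background, 21 of 73 genes (28.8%) had an entry within 500 bp, close to the 26% of all genes. In the replicates' own lists of 30000 the shares were 24.7, 38.4 and 41.1%, against 25.97, 31.7 and 31.1% of all genes, so replicates 2 and 3 kept a difference that replicate 1 did not show. Most of these genes have a divergent partner, as defined below. Of all genes with such a partner, 29.1% had a pooled entry, and 29.8, 39.9 and 37.3% had one in the replicates. Against these shares only replicate 3 kept a higher share for the ribosomal genes. Among the 500 strongest pooled peaks 4 genes had a summit (background 2.22%), and with the stronger 3242 of the IDR peaks 11 had one (8.28%). Of the 21 entries, 16 (76.2%) were strong enough for the IDR list, against 48.1% over all genes with an entry. In the replicates 83.3, 71.4 and 66.7% of the genes with an entry were among the best 6485 peaks, against 47.2, 47.8 and 48.4% of all genes. For all genes with a divergent partner the share was 61.4% in the pooled list and 58.7, 61.4 and 62.6% in the replicates. These shares were nearer to those of the ribosomal genes, most of all in replicate 3. The other 57 genes were not bound in the IDR list. Of these, 49 were bound in no replicate either, for example mRpL1, mRpL10, mRpL11 and mRpL12, and 41 had no entry in any of the 4 lists of 30000. A further 8 genes were bound in 1 or 2 replicates but not in the IDR list. mRpL24, mRpL37 and mRpS26 were bound in replicates 2 and 3. mRpL47 and mRpS21 were bound in replicate 2 alone, and mRpL35, mRpL54 and mRpS17 in replicate 3 alone. The nearest genes outside the distance limit were mRpL33 and mRpL49, with an IDR summit 642 and 681 bp away, and the farthest bound one was mRpS25 at 453 bp.

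**Figure D2:**
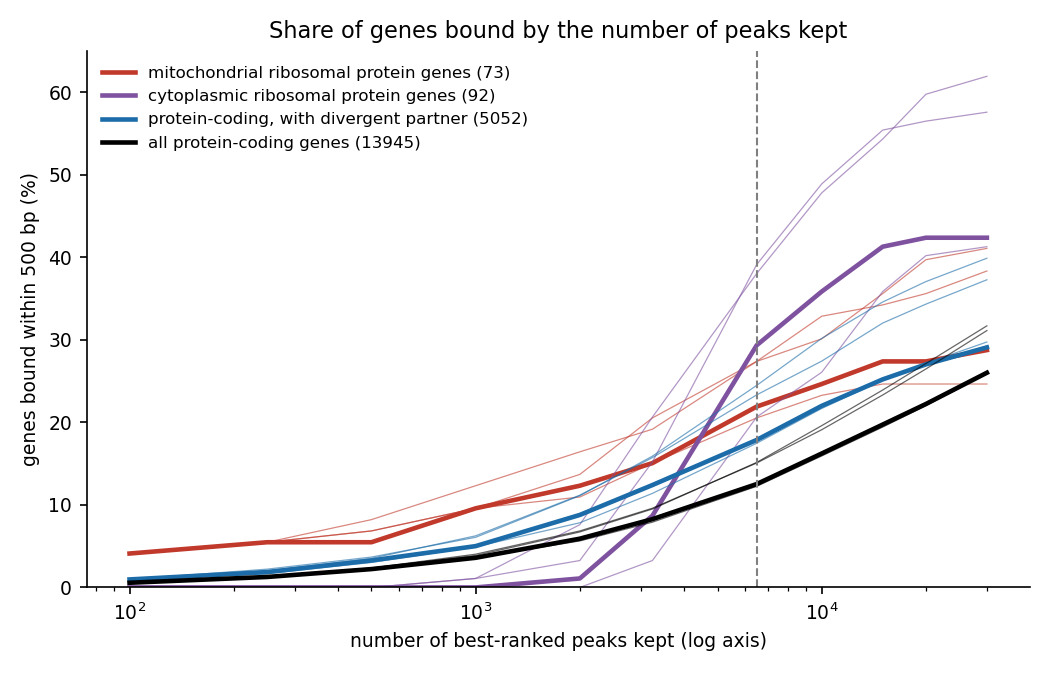
Percentage of genes with a summit within 500 bp of a start site against the number of best-ranked peaks kept (log axis). Thick lines are the pooled list, thin lines the 3 replicates, and the dashed line marks 6485 peaks. Mitochondrial ribosomal protein genes lie above all genes at 100 pooled peaks (4.11 against 0.567%) and near them at 30000 pooled entries (28.8 against 26%), whereas cytoplasmic ribosomal protein genes rise from 0% at 1000 pooled peaks.

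Small-subunit genes were bound more often than large-subunit genes. Of the 26 mRpS genes, 9 were bound in the IDR list (34.6%, Wilson interval 19.4 to 53.8), and of the 47 mRpL genes 7 were (14.9%, 7.41 to 27.7). The replicates gave 37.2% ± 5.88 for mRpS and 18.4% ± 3.25 for mRpL (SD, n = 3), so that the gap exceeded the spread between libraries. The intervals over genes overlapped, and the difference was not tested. On the arms, 6 of 17 genes on 3L, 3 of 12 on 2L, 3 of 12 on 2R, 3 of 21 on 3R and 1 of 11 on X were bound. The shares of all genes were 13.3% on 3L, 12.9% on 2L, 11.3% on 2R, 11.7% on 3R and 14.2% on X, and these few genes per arm were not compared further. The bound genes on 2R were mRpL41, mRpL34 and mRpL18, and no sequence from that arm is shown.

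Every bound gene had a divergent partner. A partner was a protein-coding gene on the other strand with a start site 0 to 1000 bp upstream, and 58 of the 73 genes (79.5%) had one, against 36.2% of all genes. None of these partners was itself a mitochondrial ribosomal protein gene. In the IDR list 16 of the 58 genes with a partner were bound (27.6%, Wilson interval 17.8 to 40.2), and 0 of the 15 without (interval up to 20.4%). Over all genes 17.9% were bound with a partner and 9.49% without. The replicates gave 25.9, 34.5 and 34.5% of the 58 genes, against 17.5, 24.5 and 23.3% of all genes with a partner. The gap to genes of the same layout was 9.84 ± 1.39 points (SD, n = 3). This spread covers the libraries and not the choice of genes. The lower end of the Wilson interval for the 58 genes (17.75%) lay just below the 17.87% of all genes with a partner. No mitochondrial ribosomal protein gene without a partner was bound in any replicate, whereas 9.29, 9.85 and 10.4% of all such genes were. The 15 genes were mRpL9, mRpL10, mRpL12, mRpL13, mRpL14, mRpL19, mRpL36, mRpL40, mRpL45, mRpL49, mRpS5, mRpS9, mRpS33, mRpS34 and mRpS35.

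Genes with several start sites have more chances to lie near a summit, so genes with a single annotated start site were counted apart. Of these, 14 of 67 were bound (20.9%, background 7.83%). With a single start site and a partner, 14 of 53 were bound (26.4%), and 13.1% of all such genes. When only the outermost start site of each gene was used, 16 of 73 genes were bound (10.2% of all genes).

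The share that was bound differed with the distance between the divergent start sites. With the partner more than 300 and up to 1000 bp away, 11 of 25 genes were bound in the IDR list (44%), against 20% of all genes in this layout. With the partner within 300 bp, 5 of 33 were bound (15.2%), against 15.8% of all such genes. In replicates 1, 2 and 3 the genes with distant partners were bound in 40, 48 and 44% of cases (44% ± 4.0), against 24.0% ± 3.79 over all genes. Those with near partners were bound in 15.2, 24.2 and 27.3% (22.2% ± 6.31), against 19.6% ± 3.72. The limit of 300 bp had been listed as an alternative, but the split itself was drawn after the counts were seen. With limits of 200 and 400 bp the distant class gave 36.1 and 35.3%, against 19.8 and 19.1% of all genes. The near class gave 3 of 22 (13.6%, against 13.4% of all genes) at 200 bp and 10 of 41 (24.4%, against 17.2%) at 400 bp. At 400 bp the classes thus lay closer together, and the near class no longer matched its background.

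**Figure D3:**
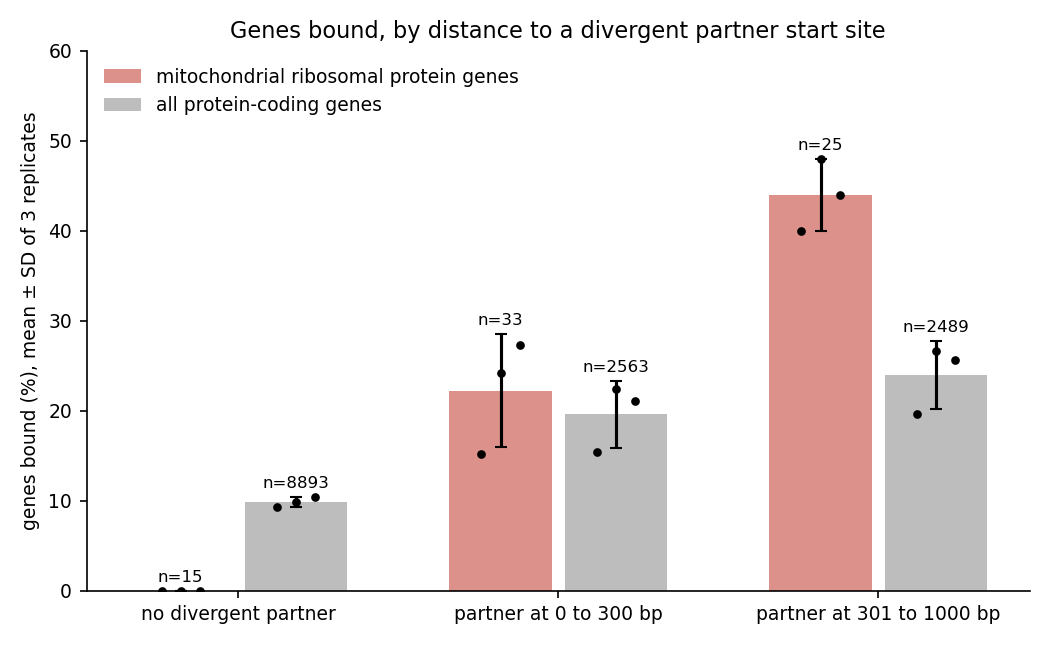
Percentage of genes bound by the distance to a divergent partner, for mitochondrial ribosomal protein genes (red) and all protein-coding genes (grey). Bars are means of 3 replicates with SD, points are the replicates, and n is the number of genes. With a partner beyond 300 bp the means were 44 and 24.0%, with a nearer partner 22.2 and 19.6%, and without one 0 and 9.84%.

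Most of the best summits lay between the divergent start sites, and they were at least as often nearer to the partner as to the ribosomal gene. Of the 16 best summits 15 (93.8%) lay upstream of the ribosomal gene's start site, 13 of them in the stretch between the start sites. An upstream summit was common in general, at 84.5% of all 1747 bound genes. The share between start sites was not counted over all genes. The median position relative to the start site was -200.5 bp (negative is upstream), against -189 for all bound genes. In 9 of 16 cases (56.2%) the start site nearest to the best summit was that of another gene, in each case the partner. Only the strongest summit within 500 bp of each gene was counted. For mRpL17 and mRpL2 another IDR summit lay nearer to the gene, at 160 and 115 bp, against 359 and 319 bp for the strongest. Over all bound genes with a partner, the partner's start was nearer in 38.4%. The replicates gave 66.7, 65 and 65%, against 37.3, 41.8 and 40.5%. For 15 of the 16 genes (93.8%) the partner was bound by the same rule, against 79.7% over all bound genes with a partner. In the replicates the shares were 93.3, 100 and 95%, against 78.1, 86.4 and 83.6%. For 15 of the 16 genes the same summit lay within 500 bp of the partner's start. These data therefore cannot tell which gene of a pair a site belongs to. Why joint calls were more frequent than over all genes was not tested.

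The partners encode proteins of varied roles. The mRpS10 summit lay 135 bp upstream of mRpS10 and 122 bp from Art3, an arginine methyltransferase gene. That of mRpS23 lay 398 bp upstream and 94 bp from CenG1A, which encodes an Arf GTPase-activating protein. The mRpL20 summit was 282 bp upstream and 117 bp from Icmt, an isoprenylcysteine methyltransferase gene, and the mRpS2 summit 162 bp upstream and 60 bp from Mon1, an endosomal trafficking gene. The strongest mRpL17 summit was 40 bp from the start of Tudor-SN, a nuclease gene, and 359 bp from that of mRpL17. A further IDR summit lay 160 bp from the mRpL17 start. The mRpS24 summit was 165 bp from that of Apc2, whose product acts in the destruction complex of Wnt signalling.

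Nearer to the ribosomal gene were the summits of mRpS6 (87 bp, 361 bp from Cip4), mRpS7 (187 bp, 213 bp from the mitotic kinase gene Cdk1) and mRpL34 (185 bp, 199 bp from the dystroglycan gene Dg). So were those of mRpS22 (174 bp, 218 bp from CG5003) and mRpS31 (219 bp, 238 bp from hzg). The mRpS25 summit lay 453 bp from its gene and 242 bp from nmdyn-D6, a nucleoside diphosphate kinase gene. mRpL41 was the exception among the partners, since its partner CG8079 started 617 bp from the summit and was not bound. A noncoding RNA gene, lncRNA:CR44463, also had a start site within 500 bp of the mRpL41 summit. The strongest mRpL2 summit lay inside an intron of its partner FoxK, a forkhead gene, and a further IDR summit lay 115 bp from the mRpL2 start. That of mRpL18 lay in the 5′ UTR of Taz, which encodes the cardiolipin-remodelling enzyme tafazzin. The mRpL23 summit lay in its own 5′ UTR, 65 bp downstream of a start site.

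Summit positions repeated closely at most of the genes bound in all replicates, the only ones measured. For the 12 genes bound in all replicates, the best summits of the 3 replicates spanned a median of 23 bp, and 8 of 12 spanned at most 50 bp. The mRpS2 summits lay within 1 bp of each other, at -162.7 ± 0.577 bp (SD, n = 3) from the start. Those of mRpL41 were at -147.7 ± 8.39 bp, of mRpS23 at -399.3 ± 7.64 bp and of mRpS6 at -87.3 ± 6.51 bp. Requiring a peak in both other replicates when 1 replicate was left out kept 13, 13 and 14 of the 73 genes without replicates 1, 2 and 3 (all genes 9.47, 9.3 and 9.54%). The peaks filtered in this way were those of the IDR list, called on all 3 replicates, so genes could only be lost. The widest span of summits, 239 bp, was at mRpS31, where the best summit of replicate 3 lay on the far side of the partner's start.

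**Figure D4:**
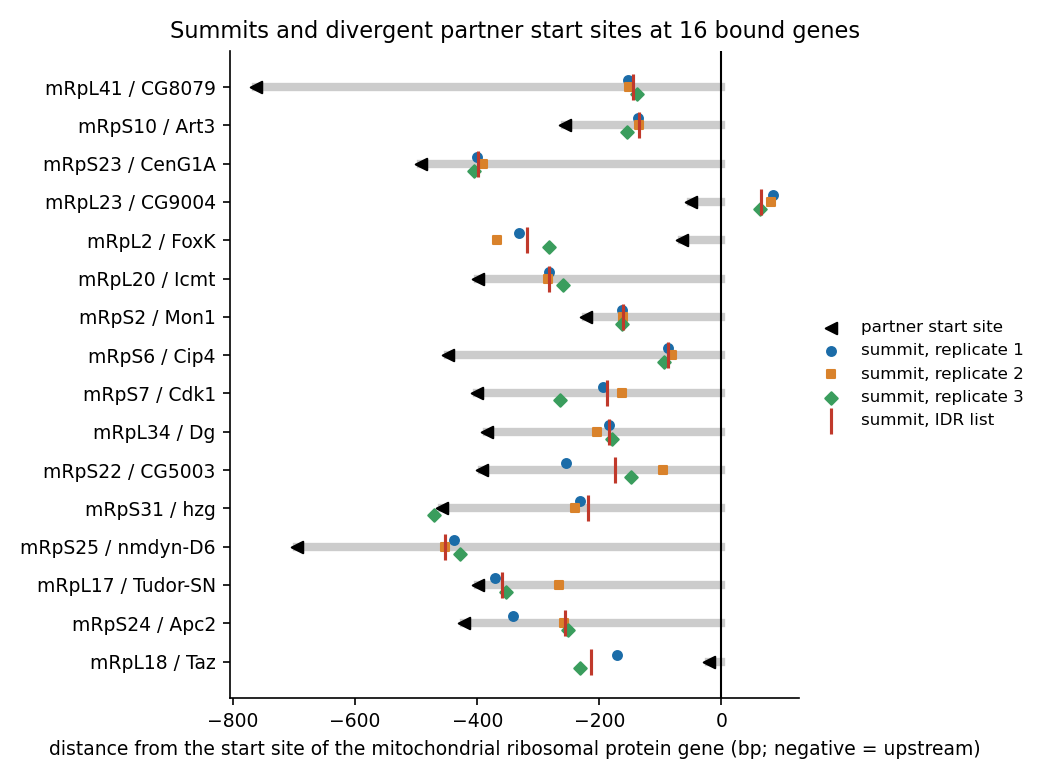
Position of the best summit in each replicate (points) and in the IDR list (red bar) relative to the start site of each of the 16 bound genes, in bp, with upstream negative. Grey bands run to the divergent partner's start site (triangle), rows are ordered by signal value, and each row is named gene / partner. The mRpL23 summits lie downstream of a start site, and the replicates' summits at mRpS2, mRpL41 and mRpS23 nearly coincide.

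Short words were searched on both strands, and none of them contains another. The DRE element was searched as TATCGATA, and the core of the promoter element called motif 1 as GGTCACAC. The E-box, the site of many helix-loop-helix factors, was searched in the form CAGCTG and, separately, in the form that many such factors prefer, CACGTG. The GAGA factor word was GAGAGA. For the TATA box the letters were TATAAA. The last word searched, rich in A and T, was AATATT. Within 100 bp of the 16 summits, the DRE and the motif 1 core were absent from the searched windows, as they were from most others (2.43 and 1.68% of the 1731 IDR summits near a coding start held them). TATAAA occurred in 6 of 16 windows (37.5%, against 38.5%) and AATATT in 5 (31.2%, against 30.04%). Mean GC content was 32.2% at these 16 summits and 35.0% at the 1731. Both AT-rich words thus occurred at about their share of other promoter summits. GAGAGA was found in 1 of the 16 windows (6.25%, against 12.5%) and CACGTG also in 1 (6.25%, against 1.91%), and 16 windows are few.

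The E-box CAGCTG was found near the start site in 35 of the 73 mitochondrial ribosomal protein genes, at similar shares of bound and unbound genes. In windows from 250 bp before to 50 bp after the start, 40 of 73 genes held it (54.8%), against 17.7% of all protein-coding genes and 22.0% of those with a divergent partner. Of the bound genes 9 of 16 held it (56.2%), and of the unbound genes 31 of 57 (54.4%). Unbound here means not bound in the IDR list, and 8 of these 57 genes were bound in 1 or 2 replicates. The 35 genes with the word within 50 bp of the start, 8 of 16 bound (50%) and 27 of 57 unbound (47.4%), made up 47.9%, against 9.30% of all genes and 7.61% of the 92 cytoplasmic ribosomal protein genes. Farther upstream, 51 to 250 bp from the start, the shares were 12.3 and 9.34%. Of the 16 summit windows 1 held the word (6.25%), near the 8.09% of the 1731 IDR summits near a coding start. These are counts of a word in reference sequence, with no test, and do not show binding of any factor. The DRE occurred in 15.8% of promoters with a divergent partner, in 4 of 16 bound (25%) and in 11 of 57 unbound genes (19.3%). For the motif 1 core the values were 13.2%, 0 of 16 and 8 of 57 (14.0%). For CACGTG they were 4.87%, 1 of 16 (6.25%) and 4 of 57 (7.02%).

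**Figure D5:**
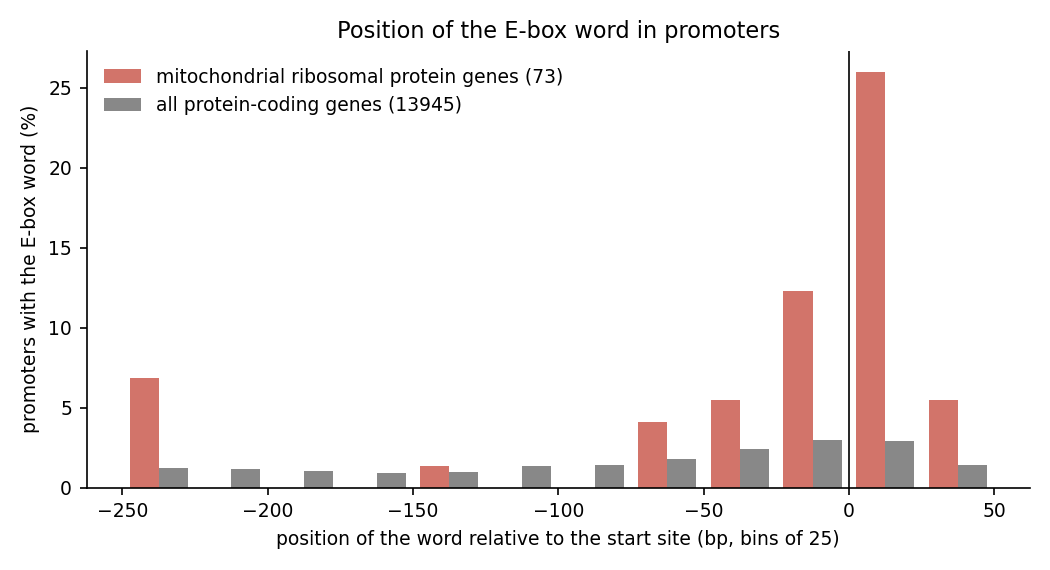
Percentage of promoters holding the E-box word on either strand in bins of 25 bp around the start site (0), for 73 mitochondrial ribosomal protein genes (red) and 13945 protein-coding genes (grey). The bin from 0 to 25 bp holds the word in 26.03% of the ribosomal genes and 2.95% of all genes.

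The stretch from 30 bp before to 30 bp after the start is shown for 4 genes bound and 4 not bound in the IDR list, so that the position of the word, in capitals, can be compared. Among genes on 2L, 3L, 3R and X with the word in this stretch, the bound ones shown have the strongest peaks and the unbound ones are the first in the alphabet. mRpL41, which has the strongest peak and holds the word at position -9, is not shown. mRpL24, not bound in the IDR list, was bound in replicates 2 and 3 (ranks 389 and 279).
mRpL23 (bound), chr3L:2373675-2373734, minus strand: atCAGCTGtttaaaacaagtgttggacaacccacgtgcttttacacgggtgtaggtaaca
mRpL2 (bound), chr3L:11120817-11120876, plus strand: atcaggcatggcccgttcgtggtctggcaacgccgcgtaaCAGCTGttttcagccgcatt
mRpS2 (bound), chr2L:4850390-4850449, minus strand: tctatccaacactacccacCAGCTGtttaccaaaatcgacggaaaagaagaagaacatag
mRpS6 (bound), chr3L:4364520-4364579, plus strand: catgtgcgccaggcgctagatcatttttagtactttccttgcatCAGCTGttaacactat
mRpL11 (not bound), chr3R:14511808-14511867, plus strand: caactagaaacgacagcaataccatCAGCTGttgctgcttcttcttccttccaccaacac
mRpL19 (not bound), chr3R:8674079-8674138, plus strand: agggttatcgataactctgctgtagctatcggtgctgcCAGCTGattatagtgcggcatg
mRpL21 (not bound), chr3L:19255032-19255091, minus strand: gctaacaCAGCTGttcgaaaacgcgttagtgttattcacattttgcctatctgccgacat
mRpL24 (not bound), chr2L:4945332-4945391, minus strand: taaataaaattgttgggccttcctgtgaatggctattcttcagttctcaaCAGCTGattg

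Among other genes of mitochondrial gene expression, counted in the lists below, 7 were bound in the IDR list (12.5% of all genes were). Of 17 genes for mitochondrial transcription and RNA processing 4 were bound in the IDR list (23.5%), and the replicates gave 27.5% ± 3.40 (SD, n = 3). Of these 17 genes 14 had a divergent partner. Of all genes in this layout 17.9% were bound in the IDR list and 21.8% ± 3.76 in the replicates. The 4 were PNPase (signal value 1572, replicate ranks 11, 10 and 11), a polynucleotide phosphorylase, SLIRP2 (852; 149, 167 and 81) and SLIRP1 (343; 1281, 1231 and 1063), RNA-binding proteins, and RNaseZ (194; 5231, 4193 and 1719), which trims tRNA 3′ ends. Of 12 translation factor genes 1 was bound (8.33%), the initiation factor gene mIF2 (signal value 300.1, ranks 1941, 1686 and 1311). Of 20 genes for tRNA synthetases that act in mitochondria 2 were bound (10%), ArgRS-m (130) and GlyRS (138), neither among the best peaks of all replicates. Neither tko nor bonsai, which encode mitochondrial ribosomal proteins under other symbols, was bound in any list. Against the background of 12.5% these lists are too short to rank. Cytoplasmic ribosomal protein genes, at 27 of 92 (29.3%), were bound at least as often as the mitochondrial ones, but with weaker peaks.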

How the data were processed

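The authors deposited, per the file headers and notes, a dm6 peak list for each of 3 replicates and for the pooled replicates (30000 entries each, peaks with background) and a list thresholded by IDR, derived from the replicates' alignments and a further shared file. Which aligner and peak caller made them is not given in the sources used here. Each deposited signal value is a score used to rank peaks within a list; the deposited −log10 q column was not used. dm3 lists were not used here. No read totals were used, so depth is unknown and intervals cover counting error only.

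Summits (start plus offset, 1-based) were compared with Ensembl release 115 start sites in Python 3.11.15 with pandas 2.3.3 and scipy 1.17.1. The 6485 best peaks of each replicate matched the number of IDR peaks. All dm6 peaks lay inside the RefSeq Release 6 arms. Counting code was tested on simulated data. Named genes were all bound members, any bound in all replicates only, those just outside 500 bp, the first 4 others by alphabet, and bound genes of each other list; further names, such as the genes bound in replicates 2 and 3, were chosen after their values were seen. The members and lists were chosen with earlier results of these data known, so no set test was run. Replicates measure the spread between these libraries.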

Additional observations from a re-analysis of the deposited data

How the results depend on the processing

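The count of 16 bound genes (background 12.5%) ranged from 11 to 18 under other distances, start sites, overlap rules and the stronger 3242 IDR peaks. The share of all genes moved with these settings. The count was 12 at 250 bp (background 8.29%), 18 at 1000 bp (15.6%) and 18 with any overlap of the peak interval (14.1%). It was 16 with the outermost start sites (10.2%) and 11 with the stronger 3242 IDR peaks (8.28%). Among the 1000 strongest peaks it was 7 (3.59%). With every pooled entry counted, 21 genes were bound, near the background of 26%. Requiring IDR peaks in both other replicates left 13 to 14 genes, and 12 genes stayed bound whichever replicate was left out. These are the same 12 genes that were bound in all 3 replicates, so they give no separate evidence. The IDR list itself was called on all 3 replicates, so these settings could remove genes but add none. mRpL17, mRpL18, mRpS24 and mRpS25 were each lost in 2 of these 3 settings. The mean over replicates was 18.3 genes (background 14.2%) and ranged from 17.5 to 20 without single replicates. It moved more under other settings, to 13.3 at 250 bp (9.68%) and 20.7 at 1000 bp (17.3%). With the best 3242 and 12970 peaks of each replicate it was 13.3 (9.01%) and 23 (20.7%). Genes bound in all 3 replicates numbered 12 (background 9.65%), fell to 7 at 250 bp, and ranged from 13 to 16 when a replicate was left out, since only 2 had then to agree. Without replicates 1, 2 and 3 they were 16, 13 and 14, beside 1684, 1473 and 1464 of all 13945 genes. Mitochondrial ribosomal protein genes bound in all 3 replicates numbered 14 at 1000 bp, and 9 and 17 with the best 3242 and 12970 peaks. At 250 bp and in these other settings the share of all genes bound in all 3 replicates was not counted. With partners limited to 300 bp, 5 of the 16 bound genes had one. Of genes with a partner beyond 300 bp, 44% were bound; this became 36.1% with a limit of 200 bp and 35.3% with 400 bp (alternatives chosen after seeing the data), and 32 to 40% without single replicates (without replicates 1, 2 and 3: 36, 32 and 40%; all genes 15.0, 14.1 and 15.3%). The causes were not tested. The start site nearest to the best summit was another gene's in 9 of 16 cases under both gene sets. Unknown depth leaves the absence of a weak peak undecided. No paired analysis was possible because the design has 1 group.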

Other observations

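At 3 genes replicates 2 and 3 had strong peaks and replicate 1 had no entry. mRpL24 had strong peaks in replicates 2 and 3 (ranks 389 and 279, at -147 and -109 bp from its start), as did mRpS26 (1436 and 1273) and mRpL37 (2591 and 2458). Neither replicate 1 nor the pooled list had an entry within 500 bp of these starts. The nearest entry of replicate 1 lay 14397 bp from mRpL24, 3741 bp from mRpS26 and 7545 bp from mRpL37, and the nearest pooled entry 8629, 4847 and 7784 bp. The pattern was also seen over all genes. Of 16 mitochondrial ribosomal protein genes bound in both replicates 2 and 3, these 3 (18.8%) had no entry in replicate 1, and of 1684 such genes overall 223 (13.2%) had none, or 18.7% of those with a divergent partner. In the reverse cases, 1.84% of all genes bound in replicates 1 and 2 had no entry in replicate 3. Of those bound in 1 and 3, 2.24% had none in replicate 2. For the mitochondrial ribosomal protein genes these cases were 0 of 14 and 1 of 13 (7.69%). The pooled list lacked an entry for 169 of the 223. Why the pooled list omits sites that rank high in 2 of its 3 libraries was not tested.

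In the printed windows the word ATTAATT recurred, and it was counted after they had been read. It occurred in 4 of those 6 windows, which chose it, and in 3 of the other 10 summit windows of bound mitochondrial ribosomal protein genes. Over the 1731 IDR summits near a coding start the share was 13.7%, and in windows 1000 bp to either side 7.51 and 6.01%, where GC content was higher (43.0 and 42.8% against 35.0%). At the unbound genes, 5 of 57 windows next to the start held it (8.77%). No test was made, since the word was chosen from these sequences.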
